A study of Mus musculus with 74 samples.

Results

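The genes described here are 9 factors needed to form the bipotential gonad of the mouse or acting early in it: Wt1, Nr5a1, Gata4, Lhx9, Emx2, Cbx2, Six4, Tcf21 and Podxl. They were chosen by name, as every probe of the array table whose gene symbol was on that list, which gave 11 probes of the 25697 in the table. Nr5a1 and Lhx9 had 2 probes each and the other genes had 1. The list is mostly, but not only, one of transcription factors: Cbx2 encodes a chromodomain subunit of a Polycomb repressive complex, and Podxl encodes podocalyxin, a sialomucin of the cell surface. Measurements were made on 74 Illumina MouseRef-8 BeadChip arrays, each hybridised with RNA from the gonads of 1 embryo, both gonads of the pair together and separated from the mesonephroi. Embryos were XY or XX and came from the inbred strains 129S1/SvImJ (129S1) or C57BL/6J (B6), with no engineered allele and no treatment. They were staged by tail somites at 6 stages from E11.0 to E12.0, in steps of 4.8 h. Each of the 24 combinations of strain, sex and stage had 3 arrays, except 129S1 XY E11.0 with 5, 129S1 XY E12.0 with 2 and B6 XY E11.2 with 4, so that 38 arrays were XY and 36 XX.

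The genital ridge arises as a thickening of the coelomic epithelium over the mesonephros. WT1, a zinc finger protein, LHX9, a LIM homeodomain protein, and EMX2, a homeodomain protein, are needed for this tissue to grow, and mice lacking any of them fail to form gonads. GATA4 is needed for the first thickening of the epithelium. NR5A1 (SF1), an orphan nuclear receptor, marks the somatic precursors, is needed for their survival and activates genes of steroid synthesis and of the testis pathway. SIX4, a homeodomain protein, contributes to the activation of Nr5a1 and Sry, CBX2 is needed for testis formation in XY mice, and TCF21, a basic helix-loop-helix protein, is a repressor of Nr5a1. Until Sry acts in XY cells the ridge is the same tissue in both sexes, and the question put to these data was whether the factors that build it differ between XY and XX gonads, between stages and between the strains.

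Values are the deposited log2 signals, quantile normalised by the authors, so that a difference of 1 is a doubling. They were fitted with limma as 24 group means over the 12848 probes of the brighter part of the table, and p-values were adjusted by Benjamini-Hochberg over all of those; a difference was called at an adjusted p under 0.05. The probes of 7 member genes (9 probes) were tested. Those of Emx2 and Six4 were too dim: ranked by the second highest array of whichever group was brightest, Emx2 stood at 7.26 and Six4 at 7.39, below the 7.59 needed. Array medians were all 7.40, no 2 arrays were identical, and the median correlation of an array with the others of its group was at least 0.963. The labels of chromosomal sex matched the Y-linked gene Eif2s3y, which was at least 8.51 in XY gonads and at most 7.28 in XX gonads. Arrays of 1 group come from different embryos, but the labels do not give the litters. In whole gonads, fewer cells of a type and less RNA per cell cannot be told apart.

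Wt1 (ILMN_2470646) lies on chromosome 2 at 105126529 to 105173614 and Nr5a1 (ILMN_1254140, here probe 1, and ILMN_2749611, probe 2) on chromosome 2 at 38692656 to 38714542. Gata4 (ILMN_2817903) is on chromosome 14 at 63198914 to 63271712, Lhx9 (ILMN_3160067, probe 1, and ILMN_1245843, probe 2) on chromosome 1 at 138825186 to 138848839, and Tcf21 (ILMN_2930707) on chromosome 10 at 22817263 to 22820143. Podxl (ILMN_2604494) is on chromosome 6 at 31519493 to 31563937, Cbx2 (ILMN_2692207) on chromosome 11 at 119023019 to 119031275, Emx2 (ILMN_1237798) on chromosome 19 at 59458690 to 59465357 and Six4 (ILMN_1219845) on chromosome 12 at 73099609 to 73114031 (RefSeq genes, GRCm38.p6). The 2 Lhx9 probes are assigned to different RefSeq transcripts of the gene.

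Lhx9 and Tcf21 were the transcription factors with the clearest sex differences, in opposite directions, so their promoters are shown. RefSeq promoter windows of GRCm38.p6 were at hand for 4 of the 9 genes, Lhx9, Emx2, Six4 and Tcf21. Each window below is the 250 bases before the annotated start on the gene's own strand, 5′ to 3′, with motif matches in capitals. The Lhx9 window is chr1:138842445-138842694, minus strand, and its start lies within the span of the gene given above; the Tcf21 window is chr10:22820144-22820393, minus strand, just before the gene.
Lhx9: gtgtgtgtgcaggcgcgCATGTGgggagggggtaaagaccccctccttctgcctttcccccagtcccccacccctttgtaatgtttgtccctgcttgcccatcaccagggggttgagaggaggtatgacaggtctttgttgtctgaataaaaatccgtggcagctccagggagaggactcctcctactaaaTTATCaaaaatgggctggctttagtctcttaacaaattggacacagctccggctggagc
Tcf21: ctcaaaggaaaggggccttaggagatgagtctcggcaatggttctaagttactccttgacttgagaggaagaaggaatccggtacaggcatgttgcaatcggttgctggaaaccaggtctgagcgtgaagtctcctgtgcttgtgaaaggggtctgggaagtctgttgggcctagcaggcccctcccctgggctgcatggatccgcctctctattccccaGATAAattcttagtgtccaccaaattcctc
The motifs searched, on both strands, were the GATA core GATAA, the nuclear receptor core AGGTCA, the homeodomain core TAATTA, the E-box CANNTG and the SOX core AACAAT. The Lhx9 window held 1 GATAA, on the reverse strand 59 bases before the start (TTATC as printed), and 1 E-box 233 bases before it. The Tcf21 window held 1 GATAA, 30 bases before the start. None of the 5 motifs was found in the windows of Emx2 and Six4. Among all 32851 windows of this length, 22.6% held GATAA, 66.2% an E-box, 14% the nuclear receptor core, 9.42% the SOX core and 4.84% the homeodomain core, so the matches are common ones, and they say nothing of binding.

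The members varied over less than 2 log2 units each. Over the 74 arrays Wt1 ranged from 12.59 to 13.71, Tcf21 from 10.84 to 12.44 and Podxl from 10.19 to 11.64. Lhx9 ranged from 8.91 to 10.41 with probe 1 and from 8.56 to 9.79 with probe 2. The span of Cbx2 was 8.38 to 9.13, that of Gata4 7.77 to 9.06, and that of Nr5a1 7.73 to 8.85 with probe 1 and 7.50 to 8.28 with probe 2. The untested probes hardly varied: Emx2 lay between 6.96 and 7.41 and Six4 between 6.95 and 7.42.

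When the 24 groups were ordered by their means, 129S1 XY gonads at E12.0 stood last for 5 probes. They were the lowest group for Wt1 (12.71 ± 0.17, SD, n = 2), Podxl (10.33 ± 0.08), both Lhx9 probes (9.23 ± 0.13 and 8.71 ± 0.20) and Cbx2 (8.55 ± 0.04). The highest groups were XX for these probes: B6 XX E11.4 for Wt1 (13.40 ± 0.10, n = 3), B6 XX E11.8 for Podxl (11.50 ± 0.08), 129S1 XX E11.6 for Lhx9 probe 1 (10.11 ± 0.26), 129S1 XX E12.0 for probe 2 (9.64 ± 0.05) and B6 XX E11.0 for Cbx2 (8.91 ± 0.22). Tcf21 had the reverse order, with 129S1 XY E11.6 highest (12.36 ± 0.12) and 129S1 XX E12.0 lowest (11.13 ± 0.23). Nr5a1 was lowest in 129S1 XX gonads at E11.4 with both probes, 7.88 ± 0.13 and 7.70 ± 0.16, and highest in B6 XX E11.2 with probe 1 (8.57 ± 0.15) and in 129S1 XY E11.6 with probe 2 (8.17 ± 0.09). For Gata4 the extremes were 129S1 XX E11.6 (8.78 ± 0.20) and 129S1 XX E11.4 (8.24 ± 0.16). These orders are made of small steps: of the 23 pairs of neighbouring groups all had overlapping arrays for Wt1 and Nr5a1 probe 1, and 22 of 23 for Nr5a1 probe 2.

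**Figure D1:**
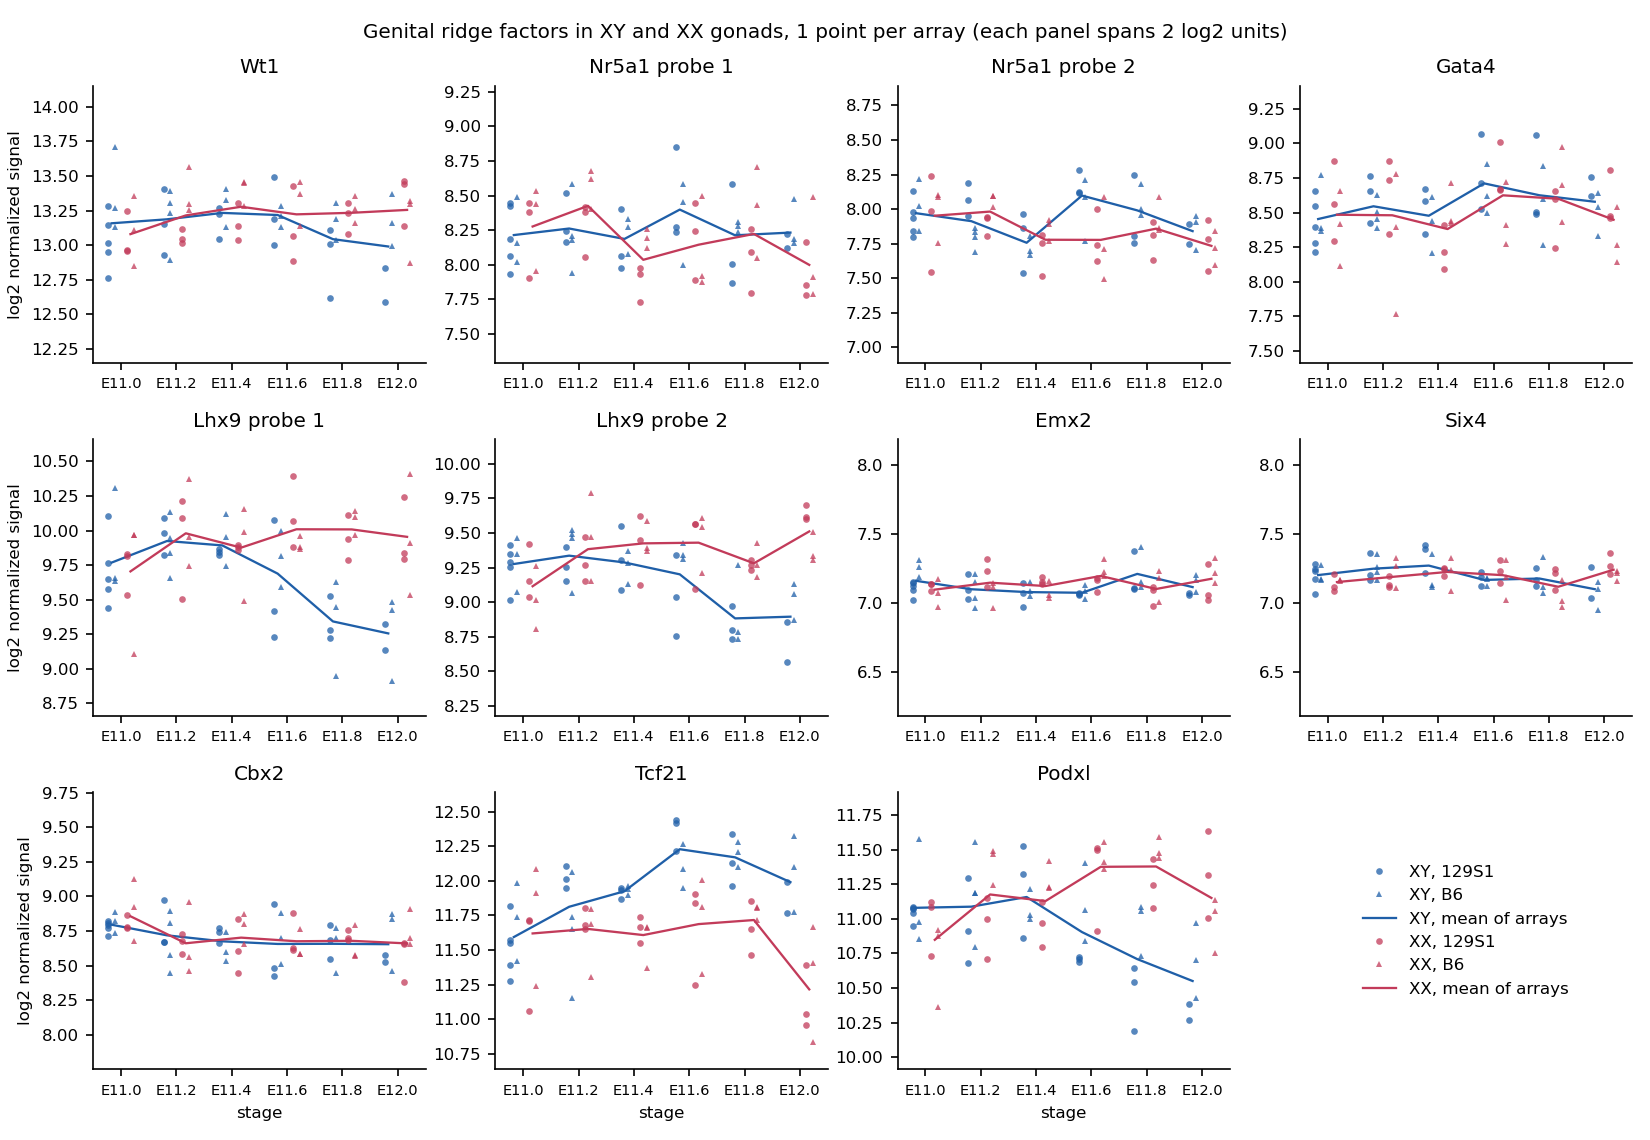
Log2 normalised signal (y axis) of each probe against stage (x axis) in XY (blue) and XX (red) gonads, 1 point per array, circles for 129S1 and triangles for B6; lines join the means of the arrays of each sex, and every panel spans 2 log2 units. Lhx9 and Podxl run lower in XY gonads from E11.6 or E11.8, Tcf21 runs higher in XY gonads, and the Emx2 and Six4 probes stay between 6.95 and 7.42.

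No member was called between XY and XX gonads at the 3 early stages. From E11.0 to E11.4, 0 of 54 tests of a member probe within a strain and stage was called (limma, Benjamini-Hochberg), and 2 had an unadjusted p under 0.05; called probes were also few overall at these stages, 0.0389%, 0.0311% and 0.0778% of the tested probes at E11.0, E11.2 and E11.4 in 129S1 and 0.0623%, 0.0389% and 0.0545% in B6. In the mean of the strains 0 of 27 tests was called either (1 with an unadjusted p under 0.05), against 0.0623%, 0.0467% and 0.0934% of probes. At E11.6, averaged over the strains, Tcf21 was higher in XY gonads (log2 difference 0.54 ± 0.14, SE, adjusted p = 0.02) and Podxl lower (-0.47 ± 0.13, adjusted p = 0.04), against 1.66% of probes called. At E11.8 both Lhx9 probes were called lower in XY gonads as well, against 8.97% of probes, and at E12.0 the same 4 probes were called, 1 higher and 3 lower, against 4.73% of all tested probes called higher and 5.7% called lower. The median difference of the 9 member probes at E12.0 was -0.02, against 0.00 for all tested probes.

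Lhx9, the LIM homeodomain gene, was called lower in XY gonads from E11.8. The authors had already named Lhx9, from these same arrays, as a female-enriched factor that falls in XY gonads, so its calls are no separate support. At E11.6 the XY mean was already lower in both strains, with overlapping arrays and no call. For probe 1 it was 9.58, against 10.11 in XX gonads, in 129S1 and 9.80, against 9.90, in B6. For probe 2 it was 9.04, against 9.41, in 129S1 and 9.36, against 9.45, in B6. The calls therefore do not date the start of the difference. At E11.8 probe 1 read 9.52, 9.22 and 9.28 in 129S1 XY gonads, against 10.11, 9.79 and 9.94 in 129S1 XX gonads. In B6 it read 8.95, 9.63 and 9.45 in XY gonads, against 10.14, 10.10 and 9.96 in XX gonads. Each XY array was below each XX array of its strain. At E12.0 the values were 9.32 and 9.13 in 129S1 XY gonads, against 10.24, 9.84 and 9.79 in 129S1 XX gonads, and 9.43, 9.48 and 8.91 in B6 XY gonads, against 10.41, 9.54 and 9.91 in B6 XX gonads. Probe 2 gave the same picture at E12.0, with 8.56 and 8.85 in 129S1 XY gonads, against 9.70, 9.62 and 9.60 in 129S1 XX gonads. In B6 probe 2 read 9.13, 9.06 and 8.87 in XY gonads, against 9.51, 9.31 and 9.33 in XX gonads. The sexes did not overlap in any of these comparisons at E12.0 and were about 1.6-fold apart: the XY minus XX difference over both strains was -0.70 ± 0.16 for probe 1 (adjusted p = 0.0012) and -0.65 ± 0.12 for probe 2 (adjusted p = 2.3e-05). At E11.8 it was -0.67 ± 0.15 for probe 1 (adjusted p = 0.0015) and -0.40 ± 0.11 for probe 2 (adjusted p = 0.011). The E12.0 calls and the E11.8 call of probe 1 stood in all 74 fits that left out 1 array, while that of probe 2 at E11.8 was lost without B6 XY E11.8 replicate 3 (-0.35, adjusted p = 0.0501). Here and in the paragraphs below, groups this small can also be apart by chance. The share of all tested probes with arrays apart was not counted.

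Podxl, which encodes the podocalyxin of podocytes, endothelium and early germ cells and is a target of WT1 in the kidney, had the same direction and was called at E11.6 as well. At E11.6 the values were 10.69, 10.72 and 10.71 in 129S1 XY gonads, against 10.91, 11.51 and 11.50 in 129S1 XX gonads, and 10.84, 11.404 and 11.06 in B6 XY gonads, against 11.41, 11.56 and 11.36 in B6 XX gonads. At E11.8 they were 10.54, 10.65 and 10.19 in 129S1 XY gonads, against 11.44, 11.24 and 11.08 in 129S1 XX gonads, and 11.09, 10.73 and 11.06 in B6 XY gonads, against 11.59, 11.48 and 11.44 in B6 XX gonads. The sexes were apart in both strains at E11.8. At E12.0 the values were 10.27 and 10.39 in 129S1 XY gonads, against 11.64, 11.01 and 11.32 in 129S1 XX gonads, and 10.97, 10.43 and 10.70 in B6 XY gonads, against 10.75, 11.05 and 11.14 in B6 XX gonads. At this last stage the 129S1 sexes were apart and the B6 sexes overlapped. Averaged over the strains the difference was -0.67 ± 0.13 at E11.8 (adjusted p = 0.00014) and -0.64 ± 0.14 at E12.0 (adjusted p = 0.00051, 1.56-fold), and both were called whichever array was left out. The E11.6 call was not firm. It was lost without any 1 of 10 arrays, namely all E11.6 arrays but 129S1 XX replicate 1 and B6 XY replicate 2 (adjusted p from 0.0563 to 0.181), with no filter on dim probes (0.0712) and with array weights (0.141).

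Tcf21, the repressor of Nr5a1, was the member higher in XY gonads. At E11.6 it read 12.44, 12.42 and 12.21 in 129S1 XY gonads, against 11.90, 11.84 and 11.24 in 129S1 XX gonads, and 12.27, 12.08 and 11.94 in B6 XY gonads, against 12.003, 11.32 and 11.81 in B6 XX gonads. At E12.0 it read 11.99 and 11.77 in 129S1 XY gonads, against 11.04, 11.39 and 10.96 in 129S1 XX gonads, and 12.32, 12.10 and 11.77 in B6 XY gonads, against 10.84, 11.66 and 11.41 in B6 XX gonads. Of the 6 comparisons within a strain from E11.6 to E12.0, XY arrays were all above the XX arrays in 5 and overlapped with them in B6 at E11.6. Of the 6 comparisons from E11.0 to E11.4 the XY mean was higher in 5 and the arrays were apart in 3, with a difference over the strains of 0.32 ± 0.14 at E11.4 that was not called (adjusted p = 0.90), so the calls from E11.6 do not date the start of the difference. Groups this small can also be apart by chance, and the share of all tested probes with arrays apart was not counted. The XY minus XX difference over the strains was 0.54 ± 0.14 at E11.6 (adjusted p = 0.02), 0.45 ± 0.14 at E11.8 (adjusted p = 0.026) and 0.76 ± 0.15 at E12.0 (adjusted p = 0.0001, 1.69-fold). The E12.0 call stood in all 74 fits without 1 array. That at E11.6 was lost without 129S1 XX replicate 3 (0.153), 129S1 XY replicate 1 (0.057) or 2 (0.0593), B6 XX replicate 2 (0.144) or B6 XY replicate 1 (0.0771), and that at E11.8 without 129S1 XX replicate 3 (0.0649), 129S1 XY replicate 1 (0.0682), B6 XX replicate 2 (0.0558) or B6 XY replicate 3 (0.0625), adjusted p in brackets.

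Wt1, Nr5a1, Gata4 and Cbx2 were not called between the sexes at any stage in the mean of the strains. At E12.0 the difference was -0.31 for Wt1 (95% interval -0.54 to -0.08, adjusted p = 0.076), 0.22 for Nr5a1 probe 1 (-0.07 to 0.52) and 0.10 for probe 2 (-0.11 to 0.31). The Wt1 difference passed the test with array weights (-0.41, adjusted p = 0.00197), with the first principal component of the within-group deviations as a covariate (0.0032), and without 129S1 XX E12.0 replicate 1 (0.0411), B6 XX E12.0 replicate 1 (0.0242) or B6 XY E12.0 replicate 3 (0.0498). As a covariate the component leaves each difference as it was and changes only its error, and Wt1 followed it at r = -0.757. Array weights gave B6 XX E12.0 replicate 3 a weight of 5.15, against 0.33 and 0.58 for replicates 1 and 2, so weighted values of that group rest mainly on 1 array. Gata4 differed by 0.15 (-0.13 to 0.43) and Cbx2 by -0.02 (-0.22 to 0.17). For Cbx2, whose loss turns XY gonads toward the ovarian fate, the interval still allows changes of about 0.2 log2 units either way. At E11.6 Nr5a1 probe 2 read 8.28, 8.12 and 8.12 in 129S1 XY gonads, against 8.002, 7.62 and 7.74 in 129S1 XX gonads, and 8.21, 8.09 and 7.77 in B6 XY gonads, against 8.09, 7.50 and 7.71 in B6 XX gonads. The sexes were apart in 129S1 and overlapped in B6, and the difference was 0.32 ± 0.10 over the strains (adjusted p = 0.09). Under array weights (0.0144) and with that component (0.0226) this difference passed the test. Emx2 and Six4 were set in a fit of all 25697 probes, where the lowest adjusted p of either over 66 comparisons was 0.257; at E12.0 their differences there were -0.07 ± 0.06 and -0.13 ± 0.06, on probes close to the bottom of the scale.

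**Figure D2:**
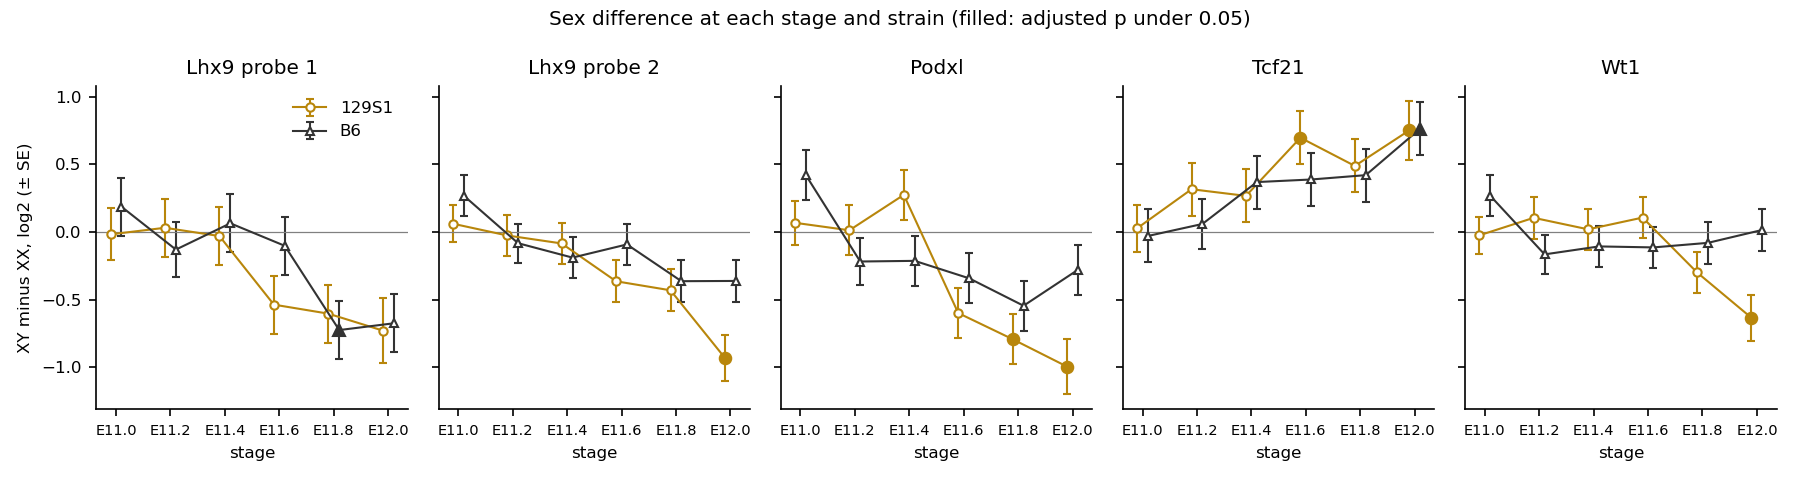
XY minus XX difference (y axis, log2, error bars 1 SE) of Lhx9, Podxl, Tcf21 and Wt1 at each stage (x axis) in 129S1 (gold circles) and B6 (dark triangles); filled symbols have an adjusted p under 0.05. Up to E11.4 the differences lie between -0.22 and 0.42, both for Podxl in B6, and none is called; at E12.0 they reach -0.996 for Podxl and -0.93 for Lhx9 probe 2 in 129S1 and 0.76 for Tcf21 in B6.

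Within each strain the tests had fewer arrays, and 8 differences of member probes were called over the 12 combinations of strain and stage. In 129S1 they were Tcf21 at E11.6 (0.70 ± 0.20, adjusted p = 0.045, 1.78% of probes called), Podxl at E11.8 (-0.79 ± 0.18, adjusted p = 0.0031, 4.33% called) and, at E12.0 with 6.47% called, Lhx9 probe 2 (-0.93 ± 0.17, adjusted p = 7.1e-05), Podxl (-0.996 ± 0.21, adjusted p = 0.00041), Tcf21 (0.75 ± 0.22, adjusted p = 0.022) and Wt1 (-0.64 ± 0.17, adjusted p = 0.011). In B6 none was called at E11.6 (0.218% of probes called), and the calls were Lhx9 probe 1 at E11.8 (-0.73 ± 0.22, adjusted p = 0.039, 3.85% called) and Tcf21 at E12.0 (0.76 ± 0.20, adjusted p = 0.0098, 4.62% called). Lhx9 probe 2 and Podxl in 129S1 at E12.0 were called in all 74 fits without 1 array.

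The other calls within a strain rested on single arrays. Tcf21 at E12.0 was lost in 129S1 without XX replicate 1 (0.0747) or 3 (0.115) or XY replicate 1 (0.332) or 2 (0.0532), and in B6 without XX replicate 1 (0.237) or XY replicate 1 (0.0939). Podxl in 129S1 at E11.8 was lost without XY replicate 3 (0.0645). Tcf21 in 129S1 at E11.6 was lost without XX replicate 2 (0.0522) or 3 (0.47) or XY replicate 1 (0.167) or 2 (0.197), and Lhx9 probe 1 in B6 at E11.8 without XX replicate 1 (0.129), 2 (0.113) or 3 (0.0686) or XY replicate 1 (0.202) or 3 (0.084). The values in brackets are adjusted p-values, and the last 2 calls were also lost with no filter on dim probes (0.0844 for Tcf21 and 0.072 for Lhx9 probe 1) and that of Tcf21 with array weights (0.161).

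Wt1 was called between the sexes in 129S1 at E12.0 alone. At E12.0 it read 12.59 and 12.83 in 129S1 XY gonads, against 13.14, 13.47 and 13.44 in 129S1 XX gonads. In B6 it read 13.16, 13.00 and 13.37 in XY gonads, against 12.87, 13.32 and 13.29 in XX gonads. The 129S1 sexes were apart and the B6 sexes overlapped, with a B6 difference of 0.01 ± 0.15, which was -0.13 with array weights and without B6 XX replicate 1. In the weighted fit the B6 XX E12.0 group rests mainly on replicate 3. The call in 129S1 was lost without XX replicate 2 (adjusted p = 0.0612) or 3 (0.0545) or XY replicate 1 (-0.51, 0.298). The difference between the strains was tested itself: the sex difference in 129S1 minus that in B6 at E12.0 was -0.65 ± 0.23 for Wt1 (adjusted p = 0.42), -0.72 ± 0.28 for Podxl (adjusted p = 0.57) and -0.57 ± 0.23 for Lhx9 probe 2 (adjusted p = 0.63). No member was called, 3 of the 9 probes had an unadjusted p under 0.05, and 0.451% of all tested probes were called. A strain difference in the sex difference was therefore not shown for any of them. Wt1 passed with the first component as a covariate (adjusted p = 0.0189), which left the difference at -0.65 and changed only its error. The component comes from the same within-group deviations, so that pass is no separate support.

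Setting E12.0 against E11.0, Lhx9 and Podxl were lower in XY gonads and Lhx9 probe 2 higher in XX gonads. In XY gonads, averaged over the strains, 3 member probes were lower at E12.0 and none higher: Podxl (-0.58 ± 0.13, adjusted p = 0.00077), Lhx9 probe 1 (-0.54 ± 0.15, adjusted p = 0.0092) and Lhx9 probe 2 (-0.42 ± 0.11, adjusted p = 0.0045), against 9.15% of all tested probes called lower and 7.15% called higher. Podxl in 129S1 XY gonads stood at 10.27 and 10.39 at E12.0, against 11.09, 11.07, 11.08, 10.95 and 11.04 at E11.0. In B6 XY gonads it read 10.97, 10.43 and 10.70 at E12.0, against 11.58, 10.98 and 10.86 at E11.0. The stages were apart in 129S1 and overlapped in B6. Lhx9 probe 2 read 8.56 and 8.85 at E12.0, against 9.25, 9.35, 9.41, 9.01 and 9.29 at E11.0, in 129S1 XY gonads. Within 129S1, Podxl fell by 0.72 ± 0.19 (adjusted p = 0.0054) and Lhx9 probe 2 by 0.56 ± 0.16 (adjusted p = 0.012), where 12.2% of probes were called.

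Of these, Podxl in the mean of the strains was called without any 1 array. Lhx9 probe 1 was lost without 129S1 XY E12.0 replicate 2 (0.0626), B6 XY E11.0 replicate 3 (0.0574) or B6 XY E12.0 replicate 3 (0.0553). Without 129S1 XY E12.0 replicate 1, which leaves that group with 1 array, Lhx9 probe 2 was lost in the mean of the strains (0.0715) and in 129S1 (0.318), and Podxl in 129S1 (0.126).

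In XX gonads Lhx9 probe 2 rose and Tcf21 fell. Lhx9 probe 2 read 9.70, 9.62 and 9.60 in 129S1 and 9.51, 9.31 and 9.33 in B6 at E12.0, against 9.42, 9.16 and 9.04 in 129S1 and 9.26, 8.80 and 9.02 in B6 at E11.0. The stages did not overlap in either strain, and the change was 0.40 ± 0.11 (adjusted p = 0.0091) whereas probe 1 changed by 0.25 ± 0.15 (adjusted p = 0.33). Tcf21 read 11.04, 11.39 and 10.96 in 129S1 and 10.84, 11.66 and 11.41 in B6 at E12.0, against 11.72, 11.71 and 11.06 in 129S1 and 11.91, 12.08 and 11.24 in B6 at E11.0. Its stages overlapped in both strains, and the change was -0.40 ± 0.14 (adjusted p = 0.045). This last call was lost with no filter on dim probes (0.0793) and without any 1 of 7 arrays, 129S1 XX E11.0 replicate 1 (0.126) or 2 (0.136), 129S1 XX E12.0 replicate 1 (0.0875) or 3 (0.124), B6 XX E11.0 replicate 1 (0.116) or 2 (0.191) and B6 XX E12.0 replicate 1 (0.179). The background in XX gonads was 11.7% of probes called. The medians of the member probes were -0.16 in XY gonads and -0.04 in XX gonads, against -0.01 for all tested probes in both.

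Over single steps of 4.8 h, 0 of 90 tests of a member probe between neighbouring stages was called and 11 had an unadjusted p under 0.05. All tested probes gave few calls as well, 0.00778%, 0%, 0.514%, 1.21% and 0.28% over the 5 successive steps in XY gonads and 0.00778%, 0.0389%, 0.0233%, 0% and 0.163% in XX gonads. The smallest unadjusted p-values were those of Tcf21 in XX gonads, E12.0 against E11.8 (-0.50 ± 0.14, adjusted p = 0.14), and of Nr5a1 probe 2 in XY gonads, E11.6 against E11.4 (0.34 ± 0.10, adjusted p = 0.11). Wt1 changed by -0.26 in XY gonads from E11.0 to E12.0 (95% interval -0.48 to -0.04, adjusted p = 0.11) and by 0.18 in XX gonads (-0.04 to 0.39, adjusted p = 0.34). Gata4 changed by 0.13 in XY gonads (-0.14 to 0.40) and by -0.04 in XX gonads (-0.30 to 0.23). Cbx2 changed by -0.16 in XY gonads (-0.35 to 0.02) and by -0.20 in XX gonads (-0.38 to -0.01), with adjusted p-values of 0.26 and 0.17. Nr5a1 changed by 0.01 (probe 1) and -0.14 (probe 2) in XY gonads and by -0.28 and -0.22 in XX gonads, none of them called. Under array weights both Nr5a1 probes and Cbx2 were called in XX gonads (adjusted p = 0.00219, 0.00234 and 0.0169). There B6 XX E12.0 replicate 3 had a weight of 5.15, against 0.33 and 0.58 for replicates 1 and 2.

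**Figure D3:**
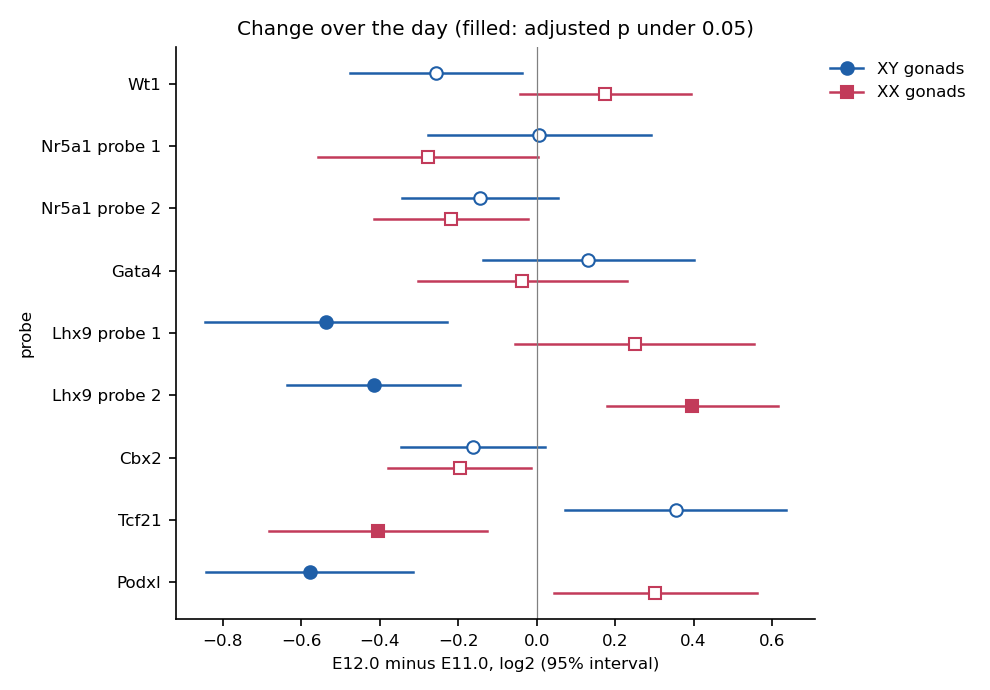
E12.0 minus E11.0 change (x axis, log2, bars are 95% intervals) of the 9 tested probes (y axis), averaged over the strains, in XY (blue circles) and XX (red squares) gonads; filled symbols have an adjusted p under 0.05. Podxl and Lhx9 lie on opposite sides of 0 in the 2 sexes (-0.58 and 0.30 for Podxl), and Tcf21 does so the other way round (0.35 and -0.40).

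The change over the day differed between XY and XX gonads for Lhx9, Podxl and Tcf21. The XY change minus the XX change was -0.88 ± 0.18 for Podxl (adjusted p = 0.00064), -0.81 ± 0.16 for Lhx9 probe 2 (adjusted p = 0.00015), -0.79 ± 0.22 for Lhx9 probe 1 (adjusted p = 0.015) and 0.76 ± 0.20 for Tcf21 (adjusted p = 0.0088), while 5.64% of all tested probes were called. For Wt1 it was -0.43 ± 0.15 (adjusted p = 0.10), which passed the test with array weights (0.00661), with the first component as a covariate (0.00373), and without B6 XX E11.0 replicate 3 (0.0463) or B6 XX E12.0 replicate 1 (0.0377). The weights and the covariate have the limits given above for the Wt1 sex difference. The XY change minus the XX change was 0.28 ± 0.20 and 0.07 ± 0.14 for the Nr5a1 probes, 0.17 ± 0.19 for Gata4 and 0.03 ± 0.13 for Cbx2. In 129S1 alone Lhx9 probe 2 (-0.99 ± 0.22, adjusted p = 0.002) and Podxl (-1.06 ± 0.26, adjusted p = 0.0069) were called, against 3.72% of probes, and both were lost without 129S1 XY E12.0 replicate 1 (0.0688 and 0.0751). The call of Lhx9 probe 1 was lost without 129S1 XY E12.0 replicate 2 (0.0544), B6 XX E11.0 replicate 3 (0.0577), B6 XX E12.0 replicate 1 (0.0509), B6 XY E11.0 replicate 3 (0.0534) or B6 XY E12.0 replicate 3 (0.05); the other 3 were called in all 74 fits. In a limma F test over all stages the sex by stage term was called for Podxl (adjusted p = 0.000179) and for Lhx9 (0.00213 with probe 2 and 0.0135 with probe 1), against 5.68% of probes, and missed the threshold for Tcf21 (0.0802), for which the sex term was called (6.83e-07, 10.3% of probes).

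Between the strains, Wt1 and Podxl were lower in 129S1 gonads in the mean over both sexes and all stages. Wt1 had a lowest, median and highest value of 12.59, 13.11 and 13.50 over 37 arrays of 129S1, against 12.85, 13.28 and 13.71 over 37 arrays of B6, and a difference of -0.15 ± 0.04 (adjusted p = 0.0044, 1.11-fold). Podxl had 10.19, 11.01 and 11.64 in 129S1, against 10.36, 11.14 and 11.59 in B6, and a difference of -0.17 ± 0.05 (adjusted p = 0.012, 1.12-fold). The strains overlapped widely, and the background was large, with 14.4% of all tested probes called lower in 129S1 and 16% called higher. Wt1 was lower in 129S1 in 10 of 12 combinations of sex and stage, with the arrays apart in 2, and Podxl in 9 of 12, with the arrays apart in 6. Wt1 was higher in 129S1 in XY E11.6 (0.02) and XX E12.0 (0.19), and Podxl in XY E11.4 (0.16), XX E11.0 (0.26) and XX E12.0 (0.34). Groups this small can also be apart by chance, and the share over all tested probes was not counted. The strain calls of Wt1 and Podxl stood in all 74 fits without 1 array. Taken by sex, both were called in XY gonads (Wt1 -0.20 ± 0.06, adjusted p = 0.014; Podxl -0.24 ± 0.07, adjusted p = 0.015; 20% of probes called) and neither in XX gonads (-0.11 ± 0.06 and -0.09 ± 0.07, 20.1% called), but the sex by strain term of the F test was called for no member (0 had an unadjusted p under 0.05, 0.272% of probes called). In the sex by stage by strain term of the F test no member was called, against 0.0856% of all tested probes. Its unadjusted p was 0.032 for Wt1 and 0.029 for Podxl. At single stages no member was called between the strains. Of all tested probes 7.9% to 10.5% were called there with the sexes together, 4.41% to 6.04% in XY gonads and 3.83% to 5.35% in XX gonads. For the other 7 tested probes the strain difference over both sexes and all stages lay between -0.10 (Nr5a1 probe 1) and 0.10 (Gata4), and none was called.

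**Figure D4:**
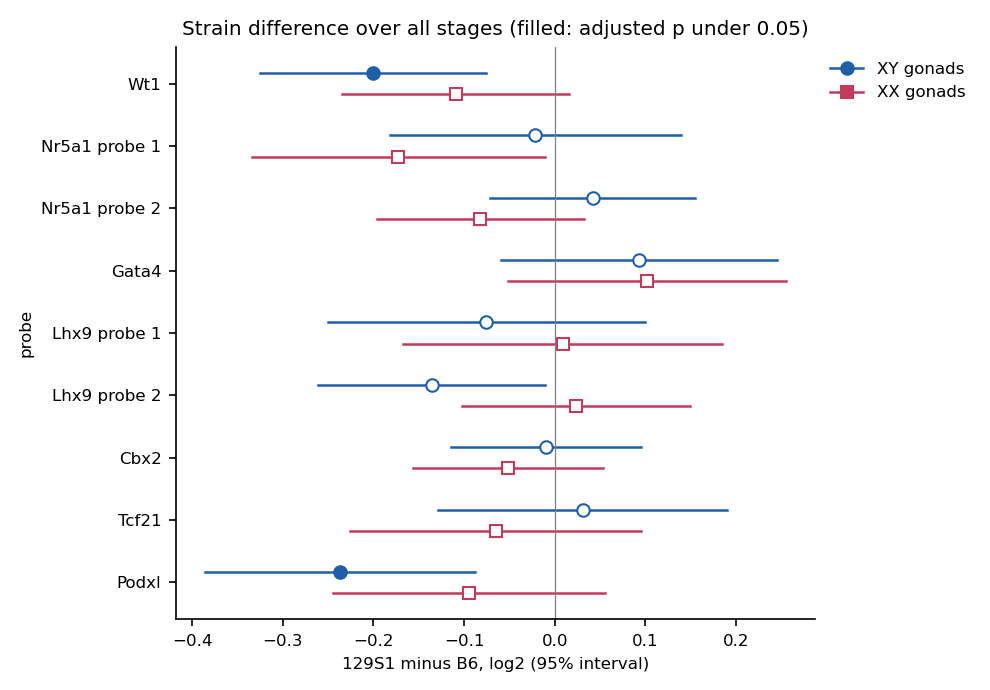
129S1 minus B6 difference (x axis, log2, bars are 95% intervals) of the 9 tested probes (y axis), averaged over the 6 stages, in XY (blue circles) and XX (red squares) gonads; filled symbols have an adjusted p under 0.05. Wt1 and Podxl in XY gonads are called, at -0.20 and -0.24.

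The probes that moved together were those of Lhx9, Podxl and Wt1. Over the 24 group means Lhx9 probe 2 correlated with Podxl at r = 0.852 and with Wt1 at 0.718, Podxl with Wt1 at 0.763, and Lhx9 probe 2 with Tcf21 at -0.647. These are descriptions, with no test, since all probes share the same arrays and the sex and stage differences described above. Between embryos of 1 group the correlation of deviations from the group mean was 0.027 for Lhx9 probe 2 with Podxl, 0.225 for Podxl with Wt1 and 0.377 for Lhx9 probe 2 with Wt1. Lhx9 probe 1 with Wt1 was at 0.587 over group means and at -0.536 within groups. The 2 Nr5a1 probes and Gata4 showed the other pattern, with 0.674 and 0.749 for Gata4 with each Nr5a1 probe within groups and 0.275 and 0.336 over group means. The 2 probes of Nr5a1 followed each other in both ways (0.786 over group means and 0.726 within groups), while those of Lhx9 did so over group means (0.869) and only weakly within groups (0.228).

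**Figure D5:**
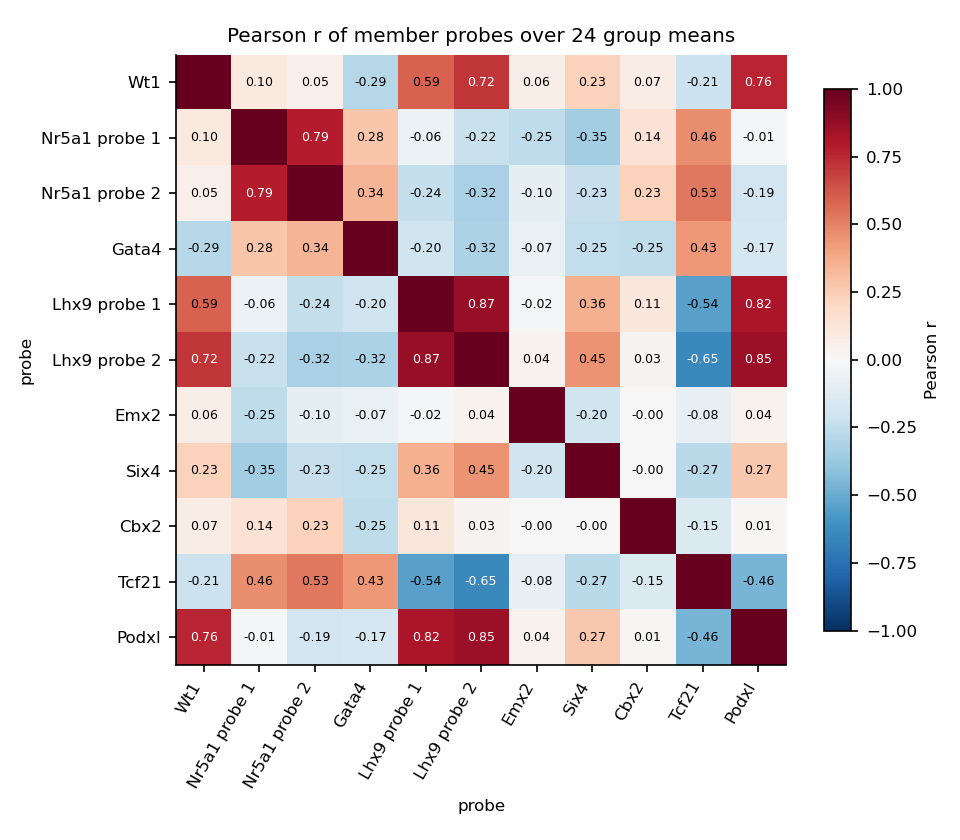
Pearson correlation (colour and printed value, -1 to 1) between the member probes over the 24 group means, with probes on both axes. Lhx9, Podxl and Wt1 form a block of positive values from 0.59 to 0.87, and Tcf21 is negative with both Lhx9 probes (-0.54 and -0.65).

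A large part of the spread within groups ran along 1 direction over the arrays, the first principal component of the deviations from the group means, with 34.6% of their variance. Wt1 correlated with it at -0.757 over the 74 arrays, Nr5a1 at 0.726 and 0.497, Lhx9 probe 1 at 0.646 and Gata4 at 0.602. Lhx9 probe 2, at -0.408, had the opposite sign to probe 1. Podxl at -0.013 hardly followed it. What the component stands for was not tested.

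By likeness of pattern over the 24 group means, with the brighter probe for genes with 2, the tested genes nearest to Lhx9 were Bag3 (r = 0.91), Fam83g (0.908) and Kdm3a (0.903), the last a histone demethylase gene whose product is needed for Sry expression in mice. Nearest to Podxl were Tkt (0.964), the transketolase gene, Fam83g (0.894) and Arhgap29 (0.871). Tcf21 was followed by Irs2 (0.857), an insulin receptor substrate gene, St3gal4 (0.824) and Bves (0.822), and Wt1 by Ccdc80 (0.856), Sulf1 (0.834) and Tnfrsf19 (0.815). Fam83g thus stood among the nearest of both Lhx9 and Podxl. For Nr5a1 they were Bola1 (0.782), 2410002F23Rik (0.779) and Itgb1 (0.776), for Gata4 Kifc3 (0.74), Sp6 (0.738) and Smg9 (0.736), and for Cbx2 Unc119b (0.783), Ano10 (0.773) and Zfp523 (0.766). The dim probes had no gene as near: Anks6 (0.595), Mark2 (0.541) and Tcf12 (0.536) for Emx2, and Tyk2 (0.689), Ascc1 (0.687) and Slc25a38 (0.653) for Six4.

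Other genes of genital ridge formation were counted in the same way. Of 14 tested from a list of 19, 1 was called higher and 5 lower in XY gonads at E12.0 in the mean of the strains, against 4.73% and 5.7% of all tested probes, with a median difference of -0.13, against 0.00 for all tested probes. The gene higher in XY gonads was Lmo4, which encodes a LIM-only protein (1.01 ± 0.14, adjusted p = 7.1e-08). The authors had picked Lmo4 as a candidate partly for its higher level in XY gonads in these same arrays, so its call is no separate support. The genes lower in XY gonads included Wnt4, a ligand of the ovarian pathway (-1.99 ± 0.22, adjusted p = 2.6e-10), Kdm3a (-0.82 ± 0.16, adjusted p = 0.00014), Gata6, a paralog of Gata4 (-0.63 ± 0.13, adjusted p = 0.00022), and Rspo1, an activator of WNT signalling (-0.70 ± 0.14, adjusted p = 0.00023). Wnt4 and Rspo1 also stand on a list of female pathway genes, of which 11 of 12 tested were lower and 1 higher in XY gonads at this stage. The authors had named several of these, among them Wnt4, Fst, Irx3 and Msx1, as female-enriched in these same arrays. The count for that list is therefore no separate support. Between E11.0 and E12.0 the genital ridge list had 1 gene called higher at E12.0 and 5 lower in XY gonads. Of all tested probes 7.15% were called higher and 9.15% lower there. In XX gonads the genital ridge list had 1 higher and 1 lower, where 5.98% of all tested probes were called higher and 5.72% lower.

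Of 22 tested from 28 genes whose products bind the members, Lmo4 alone was called between the sexes at E12.0, against 4.73% of all tested probes called higher and 5.7% lower. This is the same Lmo4 probe as was counted above. Over the day in XY gonads 1 was called higher (Lmo4, 0.85) and 5 lower, against 7.15% and 9.15% of all tested probes, among them Zfpm1, a GATA cofactor (-0.63 ± 0.10), Ldb1, the cofactor of LIM proteins (-0.39 ± 0.09), and Slc9a3r1, a scaffold that binds podocalyxin (-0.46 ± 0.10). Among 7 tested targets of NR5A1, Amh (2.38 ± 0.15) and Sox9 (2.15 ± 0.15) were higher in XY gonads at E12.0 and Amhr2 was lower (-0.60 ± 0.11), while the Nr5a1 probes themselves differed by 0.22 and 0.10. Among 6 tested targets of WT1, 0 were higher and 2 lower, Amhr2 and Sulf1 (-1.31 ± 0.22). The paralogs had 1 of 9 called, Gata6, and the 1 tested gene of the Polycomb CBX family other than Cbx2, Cbx8, was not called.

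Markers of other cells were set beside these results, in the mean of the strains unless a strain is named. At E12.0, 4.73% of all tested probes were called higher in XY gonads and 5.7% lower. At E12.0 the list for the coelomic epithelium, the layer from which the ridge arises, had 1 of 8 tested genes called lower in XY gonads (Krt18, -0.48 ± 0.11), and its mean level was 8.36 to 8.66 with a median of 8.53 in XY gonads, against 8.63 to 8.80 with a median of 8.70 in XX gonads. Germ cell markers (0 of 10 called, 2 with an unadjusted p under 0.05) were at 8.76 to 10.22 in XY gonads, against 9.13 to 10.30 in XX gonads, and endothelial markers (0 of 12, and 0 unadjusted) at 9.21 to 9.50 in XY gonads, against 9.15 to 9.43 in XX gonads. Interstitial mesenchyme markers, which bear on Tcf21, had 1 called higher (Pdgfra, 0.36) and 1 lower (Nr2f1, -0.69) of 13, with levels of 9.03 to 9.45 in XY gonads, against 8.42 to 9.47 in XX gonads. For several cell lists the median XY minus XX difference had opposite signs in the strains. It was 0.18 in 129S1 (1 called higher) and -0.51 in B6 (0 called) for germ cells. For interstitial mesenchyme it was -0.12 in 129S1 (1 called lower) and 0.25 in B6 (0 called). For mesonephros markers it was -0.37 in 129S1 and 0.02 in B6, and for red blood cells -0.03 in 129S1 and 0.35 in B6. No marker of any of these lists was called for the strain difference of the sex difference. Of the mesonephros markers 4 of 12 were bright enough to test, and 1 was higher in XY gonads (Lhx1, 0.61). Red blood cell and macrophage lists had 0 of 9 called each (limma), and 0 with an unadjusted p under 0.05.

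The same lists were counted over stage and strain. Germ cell markers had 5 of 10 called higher at E12.0 than at E11.0 in each sex, where 7.15% of all tested probes were called higher in XY gonads and 5.98% in XX gonads, and interstitial markers 3 higher and 3 lower of 13 in XY gonads and 2 higher and 4 lower in XX gonads (9.15% and 5.72% of all tested probes were called lower). Macrophage markers had 3 of 9 called lower at E12.0 in XY gonads and 0 called in XX gonads. Coelomic epithelium markers had 2 higher and 1 lower of 8 in XY gonads and 1 higher and 1 lower in XX gonads. Of 9 red blood cell markers 1 was lower in each sex, and of 12 endothelial markers 0 were called. Of 4 mesonephros markers 1 was higher in XY gonads and 1 lower in XX gonads. In 129S1 gonads, where Wt1 and Podxl were lower, 4 of 8 coelomic epithelium markers were lower and 1 higher, with a median level of 8.52, against 8.57 in B6 gonads. In 129S1, 8 of 10 germ cell markers were higher and 0 lower, 8 of 12 endothelial markers higher and 1 lower, and 1 of 9 macrophage markers higher and 5 lower, against 16% of all tested probes called higher and 14.4% lower. Interstitial markers had 3 higher and 1 lower of 13 in 129S1, red blood cell markers 2 higher and 0 lower of 9, and mesonephros markers 1 higher and 0 lower of 4. The part of any of these cells in the results for the genital ridge genes was not tested.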

How the data were processed

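The analysis used the value table of the series, 74 columns of log2 signal for 25697 probes of the Illumina MouseRef-8 BeadChip. The authors read the arrays in GenomeStudio and deposited log2 values that they had quantile normalised with beadarray in R 2.12.0, which forces the same distribution on every array and so shows changes only relative to the other probes. The raw table was not used: its 148 columns (74 of intensity, 74 of detection p) are named by chip and position and could not be matched to samples. Symbols came from GEO's platform annotation, with 1 symbol for 23978 probes and none for 1719. Depth has no meaning here; the number of arrays limits the precision.

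The 12848 probes in the upper 50%, ranked by the second highest array of a probe's brightest group, were fitted with limma 3.58.1 (lmFit, eBayes; R 4.3.3) as 24 group means, with 66 comparisons and 7 F tests, each adjusted by Benjamini-Hochberg and called at 0.05. The fit was also run on simulated data with 200 changed probes. The simulated noise was independent between probes, unlike that of the real arrays, so this run says nothing of the shared spread within groups. Alternatives were no filter, a filter on the mean, array weights, an intensity trend with a robust prior, the first principal component of within-group deviations as a covariate, the replicate number as a block, 1 strain alone and leaving out each array.

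All probes of the 9 genes are named. Of the other lists, up to 4 genes called in a comparison are named by smallest p, and for each member the 3 genes of highest correlation over group means. The members and lists were chosen with earlier results of these data known. Array intervals cover the spread between embryos of a group.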

Additional observations from a re-analysis of the deposited data

Results flagged for a closer look

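In 1 of the 22 pairs of probe and group with 4 or 5 arrays, an array lay apart from the rest: Lhx9 probe 2 read 9.06 in B6 XY E11.2 replicate 1 and 9.47 to 9.52 in the other 3. About 1 group in 20 would be singled out by chance.

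The change over the day, E12.0 minus E11.0, differed between XY and XX gonads when that difference itself was tested (limma, XY change minus XX change, mean of the strains): -0.79 for Lhx9 probe 1, -0.81 for Lhx9 probe 2, -0.88 for Podxl and 0.76 for Tcf21. In 129S1 alone it was -0.99 for Lhx9 probe 2 and -1.06 for Podxl, both lost without 129S1 XY E12.0 replicate 1 (adjusted p = 0.0688 and 0.0751). The sex by stage term had adjusted p = 0.0135 for Lhx9 probe 1, 0.00213 for Lhx9 probe 2 and 0.000179 for Podxl.

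Among the other lists the XY change minus the XX change was 2.37 for Amh, 2.08 for Sox9 and 1.095 for Lmo4, and -1.73 for Wnt4, -1.28 for Sulf1, -0.88 for Kdm3a, -0.78 for Amhr2 and -0.63 for Gata6. The sex difference of Amh at E12.0 was larger in 129S1 than in B6 by 1.83.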

How the results depend on the processing

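None of the 35 called differences of single member probes changed direction under any alternative, while 105 of all 297 took another sign under at least 1 (104 when an array was left out), none of them called there or with all arrays; the Wt1 sex difference in B6 at E12.0 was one (0.01, and -0.13 without B6 XX replicate 1). Of the results for single member probes, 307 stayed on their side of the threshold with array weights (24 gained, 2 lost), 307 with the first component as a covariate (26 gained), 328 with no filter (5 lost) and 333 with each of the other filter and the trended robust prior.

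With array weights and with the component, more probes were called: 1342 and 1976 in the sex by stage term (main 730), 1913 and 1162 between the sexes in B6 at E12.0 (593), 4880 and 5422 over the 12 sex comparisons (2771), and 3308 and 2544 for stage in XX gonads (1503). The component also gave 1262 between the sexes in 129S1 at E12.0 (831) and 161 for the strain difference of the sex difference (58). Of the member probes, the component called 5 in the sex by stage term (main 3), 5 for stage in XY gonads (3), 13 over the sex comparisons (8), 2 in B6 at E12.0 (1) and 1 for the strain difference of the sex difference (0). Array weights called 3 in B6 at E12.0 and 6 for stage in XX gonads (main 2), and no filter called 1 there. The component leaves each difference as it was, so its added calls come from a changed error only. With array weights, B6 XX E12.0 replicate 3 had a weight of 5.15, against 0.33 and 0.58 for replicates 1 and 2. Both of these weighted member counts use that group, and the part of that array in the added calls was not tested.

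Leaving out 1 array at a time, the calls ranged from 425 to 851 in 129S1 at E12.0 (members 2 to 5), lowest without 129S1 XY replicate 1, and from 330 to 724 in B6 (members 0 to 2), lowest without B6 XY replicate 3. They ranged from 636 to 793 in the sex by stage term (members 3 to 4), 579 to 746 for the XY minus XX change (3 to 4), 2380 to 2941 over the sex comparisons (6 to 10), 1549 to 2141 for stage in XY gonads (2 to 4), 1152 to 1704 in XX gonads (1 to 2), 3698 to 3994 between strains (2 in every fit) and 19 to 68 for the strain difference of the sex difference (0 in every fit).

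Replicate numbers were not taken to pair the samples, as the labels do not say what they stand for. Not every pair with the same number correlated above 0.1 in its deviations, which a real pairing need not meet: 20 of 35 did across sex (median 0.175), 3 of 11 across stage (-0.209) and 21 of 35 across strain (0.216). For different numbers these were 27 of 79 (median -0.054), 13 of 26 (0.108) and 22 of 79 (-0.082), so arrays with the same number were more alike across sex and strain, and less alike across stage. The main fit leaves the numbers out, and whether they mark a shared step of the work was not tested. With the replicate block 890 probes were called in 129S1 and 665 in B6 at E12.0 (members 5 and 2), and 4 member calls were gained and 0 lost.

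The groups of 2 to 5 arrays limit all values, Emx2 and Six4 signals were too dim to follow, and quantile normalisation hides any change shared by most probes.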
